A study of Rattus norvegicus with 9 samples.

Results

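Myeloid C-type lectin receptors are membrane proteins with which macrophages, monocytes, neutrophils and dendritic cells bind sugars and lipids of microbes and of damaged cells. The 8 genes taken as this family were Clec4a1, Clec4a2, Clec4a3, Clec4d, Clec4e, Clec7a, Clec10a and Clec12a, chosen by gene symbol. Of these, 7 had a probeset that the platform's annotation pairs with that symbol alone, and each of the 7 had 1 probeset. Clec12a was not matched to a probeset and is not analysed here. The 7 genes belong to 18166 genes with such a probeset and to 14014 genes whose mean signal passed a filter on dim values. They were described in hepatic macrophages of male Sprague-Dawley rats on 9 arrays, each from a separate animal. Partial portal vein ligation (PPVL) leaves a calibrated narrowing of the vein and is a model of portal hypertension. Of the rats, 3 were sampled 3 days and 3 were sampled 10 days after PPVL, and 3 had a sham operation in which the vein was freed but left untied. The labels name no genetic change or drug, give no ages or isolation method, and give no day of collection for the sham rats, so that ligation and time since surgery cannot be told apart. The authors' values are log2 signals from robust multi-array averaging (RMA), on which a difference of 1 is a doubling.

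The receptors divide by the signal they give. Clec4e, known as Mincle, and Clec4d, known as MCL, pair with the adaptor FcR gamma (Fcer1g), whose tyrosine motif recruits the kinase Syk, and Clec7a, known as Dectin-1, carries a tyrosine motif of its own that does the same. Syk then acts through CARD9 on NF-kB and on cytokine genes. The Clec4a genes encode the dendritic cell immunoreceptor (DCIR) family, in which some members carry an inhibitory motif that recruits phosphatases such as that encoded by Ptpn6. Clec10a, known as MGL or CD301, binds galactose-type sugars and is used as a marker of alternatively activated macrophages. In the liver such receptors sit on Kupffer cells, on recruited monocytes and neutrophils and on dendritic cells.

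At 3 days after PPVL, all 7 receptors had higher mean signals than in sham rats, and 2 of them, Clec4a1 and Clec4a3, rose by the test. The differences ran from 0.39 for Clec4e to 1.01 for Clec4a1, with a median of 0.59 where the median over all genes was -0.01. For each of the 7 genes the lowest 3-day rat lay above the highest sham rat. At 10 days all 7 means were still above sham, by 0.20 to 0.66, and none of the 7 passed. The test was limma's moderated test fitted to all genes, 2-sided, with Benjamini-Hochberg adjustment over 14014 genes and a threshold of 0.05.

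These counts stand against the following background. At 3 days 2.86% of all genes tested passed in either direction and 2.15% passed as higher. Groups that did not overlap, with every PPVL rat higher, were found for 10.1% of all genes at 3 days. At an unadjusted p under 0.05, all 7 receptors were higher at 3 days, against 9.10% of all genes. Both comparisons with sham use the same 3 sham arrays, so a low sham array raises both.

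Of the Clec4a genes, Clec4a1 and Clec4a3 rose at 3 days, and Clec4a1 had the largest difference of the 7 receptors. Clec4a1, also called Dcir4, had signals of 8.25, 8.69 and 8.57 in sham rats 1, 2 and 3. At 3 days its signals were 9.18, 9.88 and 9.46, and at 10 days 9.26, 9.04 and 8.99. Every PPVL rat was above every sham rat, and 3-day rat 2 was the highest of the 9. The rise at 3 days was 1.01 ± 0.17 (SE, n = 3 rats per group), a 2.01-fold change (adjusted p = 0.0175 with limma). The call was lost without sham rat 1 (difference 0.88, adjusted p = 0.0547) and in a fit of the sham and 3-day arrays alone (adjusted p = 0.0758).

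Clec4a3, also called Dcir3, had signals of 6.83, 6.92 and 7.0 in the sham rats, which was the tightest of the 7 sham groups (SD 0.09). Its signals were 7.25, 7.75 and 7.51 at 3 days and 7.72, 7.37 and 7.66 at 10 days. The PPVL groups overlapped with one another and both lay wholly above sham. The rise at 3 days was 0.59 ± 0.13, or 1.5-fold (adjusted p = 0.0467 with limma). At 10 days the difference was 0.66 ± 0.13, or 1.59-fold, which did not pass (adjusted p = 0.0558). The call at 3 days lay close to the threshold and was kept in 2 of the 9 fits that left out 1 array, those without 3-day rat 1 and without 10-day rat 2, with an adjusted p of up to 0.145 without sham rat 1.

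Clec4a2, also called Dcir2, had signals of 5.91, 6.31 and 6.20 in sham rats, 6.75, 7.06 and 6.44 at 3 days and 6.65, 6.31 and 6.46 at 10 days. The 3-day rats lay above sham, whereas at 10 days rat 2 was level with the highest sham rat. The differences of 0.61 ± 0.16 at 3 days and 0.33 ± 0.16 at 10 days did not pass (adjusted p = 0.0860 and 0.348 with limma), and that at 10 days was 0.22 without sham rat 1. The 3 Clec4a genes are related copies, and their probes were not checked for cross-hybridisation, so it is uncertain how far the 3 probesets measure separate transcripts.

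**Figure D1:**
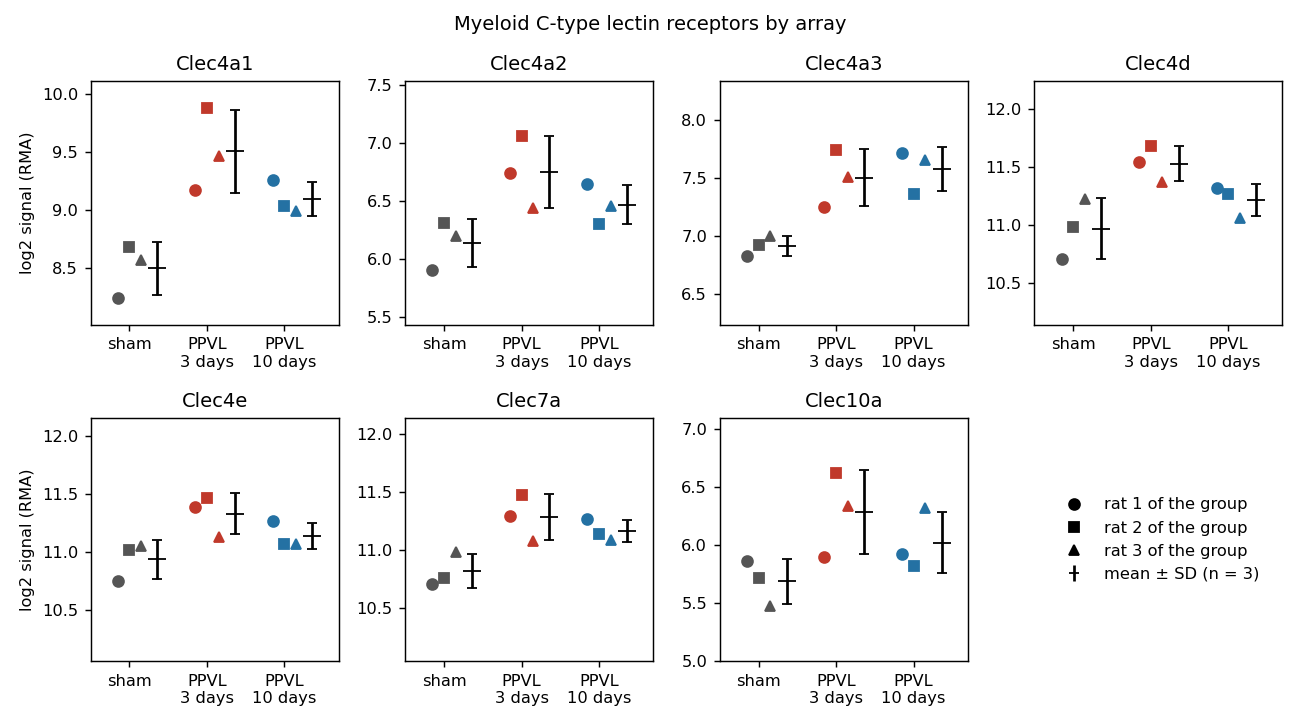
Log2 signal (RMA) of the 7 receptors on each array (vertical axis, the same span in every panel) by group (horizontal axis). Marker shapes stand for rats 1, 2 and 3 of a group and black bars for the mean ± SD (n = 3). The 3-day signals of Clec4a1 lie between 9.18 and 9.88, above its sham signals of 8.25 to 8.69, and 3-day rat 2 is the highest of the 9 arrays in every panel.

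The receptors that signal through Syk, Clec4d, Clec4e and Clec7a, were higher at 3 days by 0.39 to 0.56, and none passed. Clec4d had signals of 10.70, 10.98 and 11.22 in sham rats, 11.54, 11.68 and 11.37 at 3 days and 11.31, 11.27 and 11.05 at 10 days. The 3-day rats were above both other groups, while the 10-day and sham rats overlapped. The differences from sham were 0.56 ± 0.13 at 3 days (adjusted p = 0.0590 with limma) and 0.24 ± 0.13 at 10 days (adjusted p = 0.402). The difference at 10 days was 0.11 without sham rat 1 and 0.37 without sham rat 3.

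Clec4e, whose product can join that of Clec4d in a shared receptor complex, had signals of 10.75, 11.01 and 11.05 in sham rats, 11.39, 11.47 and 11.13 at 3 days and 11.26, 11.07 and 11.07 at 10 days. The sham group lay just below both PPVL groups. The differences were 0.39 ± 0.11 at 3 days (adjusted p = 0.108 with limma) and 0.20 ± 0.11 at 10 days (adjusted p = 0.414), the latter being 0.10 without sham rat 1.

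Clec7a, the receptor for fungal beta-glucan, had signals of 10.71, 10.76 and 10.98 in sham rats, 11.29, 11.47 and 11.08 at 3 days and 11.27, 11.14 and 11.09 at 10 days. All PPVL rats were above all sham rats, and 3-day rat 3 was level with the lowest 10-day rats. The differences were 0.46 ± 0.11 at 3 days (adjusted p = 0.0586 with limma) and 0.35 ± 0.11 at 10 days (adjusted p = 0.165). Clec4d and Clec7a lay close to the threshold at 3 days. With the stricter filter on dim genes, an intensity trend with robust moderation or array weights, both passed, with adjusted p from 0.0390 to 0.0479. With no filter (0.0749 and 0.0743) and with probeset means (0.0585 and 0.0581) neither passed, and with quantile normalization Clec4d did (0.0477) and Clec7a did not (0.0589). In fits without 1 array, each passed in 1 of 9, with an adjusted p of up to 0.192 for Clec4d and 0.181 for Clec7a.

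Clec10a had signals of 5.86, 5.72 and 5.48 in sham rats, 5.90, 6.62 and 6.34 at 3 days and 5.92, 5.82 and 6.32 at 10 days. Its rats were the most scattered of the 7 genes at 3 days (SD 0.36), where rat 1 was barely above the highest sham rat. The differences of 0.60 ± 0.19 at 3 days and 0.33 ± 0.19 at 10 days did not pass (adjusted p = 0.144 and 0.422 with limma). The difference at 3 days was 0.43 without 3-day rat 2, and that at 10 days was 0.18 without 10-day rat 3.

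**Figure D2:**
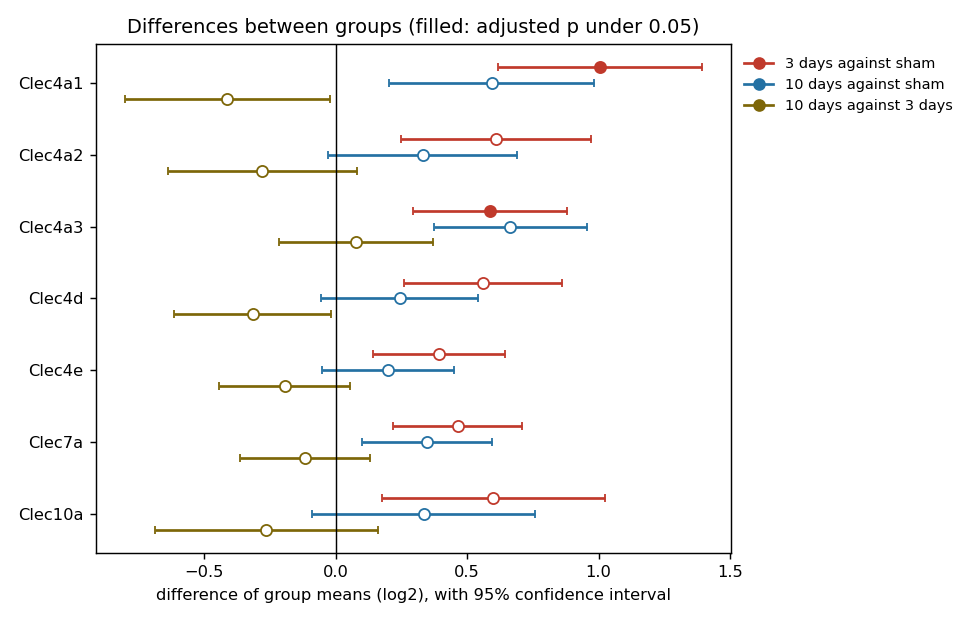
Difference of group means on the log2 scale (horizontal axis) for the 7 receptors (vertical axis) in the 3 comparisons, with bars for the 95% confidence interval of limma and filled points for an adjusted p under 0.05. The filled points are Clec4a1 (1.01) and Clec4a3 (0.59) at 3 days against sham.

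At 10 days 0.735% of all genes passed in either direction, and 0.492% as higher. At an unadjusted p under 0.05 there were 3 of the 7 receptors, Clec4a1, Clec4a3 and Clec7a, all higher, where 7.99% of all genes were. The difference of Clec4a1 from sham was 0.59 ± 0.17, or 1.51-fold (adjusted p = 0.135 with limma). The 10-day rats did not overlap with sham for 4 receptors, Clec4a1, Clec4a3, Clec4e and Clec7a, against 9.88% of all genes as higher.

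Between the days, 6 of the 7 receptors had a lower mean at 10 than at 3 days, and Clec4a3 was the exception with a difference of 0.08 ± 0.13. None of the 7 passed with limma, against 0.0714% of all genes in either direction, and 2 had an unadjusted p under 0.05, Clec4a1 and Clec4d, where 6.22% of all genes were lower at that level. Clec4a1 differed by -0.41, with a 95% confidence interval from -0.80 to -0.02 (adjusted p = 0.418), and by -0.22 without 3-day rat 2. Clec4d differed by -0.32, with an interval from -0.62 to -0.02 (adjusted p = 0.418), and was the 1 receptor with no overlap between the days, against 7.74% of all genes as lower. For Clec4a3 the interval ran from -0.21 to 0.37, and the difference was -0.05 without 3-day rat 1. In order of group means, sham was the lowest for all 7 receptors, and the neighbouring PPVL groups were not separated by the test for any of them.

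The 7 receptors varied together from rat to rat. Of the 9 arrays, 3-day rat 2 held the highest signal of all 7 genes. Sham rat 1 held the lowest signal of 6 genes and sham rat 3 that of Clec10a. Among the 10-day rats, rat 1 was the highest for 6 of 7 receptors, the exception being Clec10a. As a description over 9 arrays that fall into 3 groups, Pearson's r between receptors ran from 0.44 for Clec4d and Clec10a to 0.97 for Clec4a2 and Clec4e, with a median of 0.85 over 21 pairs. After each group's mean was taken off, r was above 0 for 18 of the 21 pairs, with a median of 0.60. The 3 pairs below 0 were those of Clec10a with Clec4d (-0.40), Clec4e (-0.24) and Clec7a (-0.14). No background over all genes was worked out for these extreme arrays or for r. The likeness is therefore not shown to be particular to the receptors.

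Without both sham rat 1 and 3-day rat 2, the differences at 3 days of all 7 receptors were still above 0, from 0.23 for Clec4e to 0.69 for Clec4a1. None of the 7 passed in that fit with limma, and that of Clec4a1 had an adjusted p of 0.0634. That fit was chosen after the values had been seen and leaves 2 rats in each of these groups.

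Markers of other cells moved along with the receptors on the same arrays. Each marker list was summarised on each array as the mean over its genes of the deviation from the gene's mean over the 9 arrays. The deviation of the neutrophil list (12 genes) was -0.86 in sham rat 1, against 0.12 and 0.19 in sham rats 2 and 3. It was 0.44, 0.54 and -0.05 in the 3-day rats and 0.08, 0.00 and -0.46 in the 10-day rats. The extremes were thus the same arrays, sham rat 1 and 3-day rat 2, that held the lowest signals of 6 and the highest of 7 receptors. This was not particular to the neutrophil list. The monocyte list (-0.49 and 0.38) and the general macrophage list (-0.35 and 0.25) had their extremes on the same arrays. Of the 12 neutrophil genes, 2 rose at 3 days and none fell, with a median difference of 0.47. Fcnb, a ficolin of granulocytes and monocytes, rose by 1.23 (adjusted p = 0.0103 with limma), and Csf3r, the receptor of the growth factor of granulocytes, rose by 1.04 (adjusted p = 0.0326, and up to 0.0978 without 1 array). The abundant neutrophil genes S100a8 and S100a9 differed by 1.19 and 1.20 (adjusted p = 0.191 and 0.268), and by 0.72 and 0.63 without sham rat 1. Cxcr2 and Mmp8 differed by 0.84 and 0.82 (adjusted p = 0.349 and 0.544), and by 0.36 and 0.15 without sham rat 1. The granule genes Mpo and Elane were dim, with sham means of 4.87 and 4.15, and differed by -0.04 and 0.03.

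The monocyte list (9 genes) ran from -0.49 to -0.22 in sham rats, from 0.19 to 0.38 at 3 days and from -0.03 to 0.06 at 10 days. Of its 9 genes 6 rose at 3 days, among them the chemokine receptor Ccr2 (0.85, adjusted p up to 0.110 without 1 array) and the integrin Itgam (0.89, passing in all 9 fits without 1 array). At 10 days 1 rose, Itgam (0.78, adjusted p up to 0.143 without 1 array). The list of general macrophage genes (10 genes) ran from -0.35 to -0.16 in sham rats, from 0.11 to 0.25 at 3 days and from -0.02 to 0.12 at 10 days, with 3 of 10 risen at 3 days. These were Aif1 (0.88, passing in all 9 fits without 1 array), Cd14 (0.92, adjusted p up to 0.0783) and Lyz2 (0.37, up to 0.0733). The Kupffer cell list (14 genes) was -0.27 to -0.20 in sham rats and 0.04 to 0.59 at 3 days, with its highest value in 3-day rat 3, and -0.02 to 0.00 at 10 days. Of its 14 genes 2 rose at 3 days, the iron exporter gene Slc40a1 (1.27, adjusted p = 0.00507 with limma) and the ficolin gene Fcna (0.75, adjusted p = 0.00245), both in all 9 fits without 1 array. At an unadjusted p under 0.05 with limma, 9 of the 14 were higher, against 9.10% of all genes. The median difference of the list was 0.52, with 12 of 14 genes higher. Marco (-0.22) and Timd4 (-0.10) were lower, and neither passed. At 10 days Fcna rose by 0.52 (adjusted p = 0.0449, and up to 0.143 without 1 array). The dendritic cell list (8 genes) ran the other way, from 0.15 to 0.25 in sham rats and from -0.27 to -0.09 at 3 days, with 3 genes fallen and none risen. All general macrophage genes matched on the array were above the filter on dim values at 4.16. Csf1r had a mean signal of 10.25 and Cd68 of 11.17, while Mertk had a sham mean of 4.83. T cell genes were bright too, with sham means from 7.95 for Cd3d to 11.03 for Cd4, and 10.41 for Cd8a. Some Kupffer cell genes lay near the filter, with sham means of 3.88 for Vsig4, 4.48 for Timd4, 4.35 for Cd163 and 4.34 for Cd5l. No marker has a signal of 0 on this scale. The part of these cells in the receptor signals was not tested, and more RNA per cell cannot be told apart from more cells of a type.

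**Figure D3:**
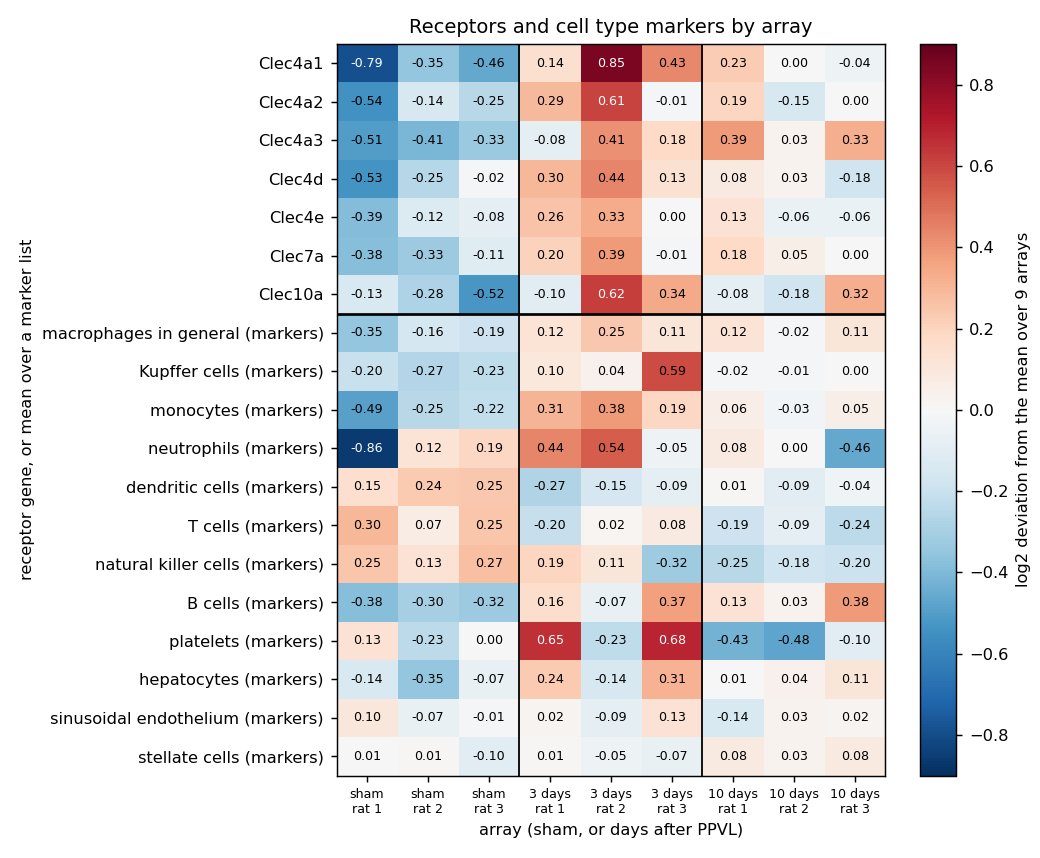
Deviation from the mean over the 9 arrays, on the log2 scale (colour and printed values), of the 7 receptors and of 12 cell type marker lists (rows) on each array (columns). Sham rat 1 is at -0.79 for Clec4a1, and 3-day rat 2 is at 0.85. For the neutrophil, monocyte and general macrophage lists, sham rat 1 is at -0.86, -0.49 and -0.35. For the same lists 3-day rat 2 is at 0.54, 0.38 and 0.25.

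Of the remaining lists, those of B cells and hepatocytes also had their lowest group mean in sham rats. The B cell list (6 genes) ran from -0.38 to -0.30 in sham rats, -0.07 to 0.37 at 3 days and 0.03 to 0.38 at 10 days, with Cr2 (0.75, adjusted p up to 0.0704 without 1 array) and Vpreb3 (0.83, up to 0.101) risen at 3 days. The hepatocyte list (6 genes) ran from -0.35 to -0.07 in sham rats, -0.14 to 0.31 at 3 days and 0.01 to 0.11 at 10 days, with the haptoglobin gene Hp risen at 3 days (0.72, adjusted p = 0.0225 with limma, and up to 0.0697 without 1 array). T cell genes (10) and natural killer cell genes (7) had their highest group mean in sham, at 0.20 and 0.22. Their lowest was at 10 days, at -0.17 and -0.21. Cd5 fell at 10 days (-0.58, adjusted p = 0.0449 with limma, and up to 0.159 without 1 array). At an unadjusted p under 0.05 with limma, 7 of the 10 T cell genes were lower at 3 days and 9 at 10 days. Of the 7 natural killer cell genes 1 was lower at 3 days and 5 at 10 days. None of either list was higher at that level. The share of all genes lower than sham at that level is not given here, so these counts stand without a background. Platelet genes (4) were at -0.23 in 3-day rat 2, which had the highest receptor signals, and at 0.65 and 0.68 in the other two. Endothelial (4) and stellate cell genes (5) stayed between -0.14 and 0.13 on all arrays.

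Each receptor was set beside the genes whose signals followed it most closely over the 9 arrays, taking the 2 with the highest Pearson's r. These values describe 9 arrays with a shared group structure and carry no test, since the genes were picked for their likeness. Clec4a1 was followed by Dok3, an adaptor that restrains immune receptor signals (r = 0.99), and by Lmna, which encodes lamin A (r = 0.98). Clec4a2 and Clec4e shared Ralgds, an exchange factor for Ral proteins (r = 0.99 for both). The second gene was Fndc3b for Clec4a2 (r = 0.98) and the proton pump subunit gene Atp6v0b for Clec4e (r = 0.98). Clec4a3 was followed by the transcription factor gene Zeb2 (r = 0.98) and by Cyfip1 (r = 0.98). Clec4d was followed by Dgat2, an enzyme of triglyceride synthesis (r = 0.99), and by the granulocyte gene Csf3r (r = 0.99). For Clec7a these were LOC690044, an antibody variable segment in RefSeq (r = 0.99), and the talin gene Tln1 (r = 0.97). For Clec10a they were Pik3ca (r = 0.96) and Naprt (r = 0.95). Of these genes Lmna rose at 3 days (0.78, adjusted p = 0.00411 with limma), in all 9 fits without 1 array. Dok3 (0.61, adjusted p = 0.0213, and up to 0.0750 without 1 array), LOC690044 (0.70, 0.0297 and up to 0.105) and Csf3r, given above, rose too. The other genes picked, with differences at 3 days from 0.12 for Pik3ca to 1.06 for Dgat2, did not pass. All were picked on these same arrays for following receptors that were higher at 3 days. Their differences at 3 days are therefore no separate support.

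Most of these receptors are neighbours in the genome. In RefSeq's order on rat chromosome 4 (assembly GRCr8), a stretch of 7 protein-coding genes runs Clec4a1, Clec4a3, Clec4a2, Clec4a, Clec4b2, Clec4d and Clec4e, of which 5 were tested. These 5 are the members described above, with differences at 3 days of 1.01, 0.59, 0.61, 0.56 and 0.39 in that order. Clec4a and Clec4b2 lay below the filter on dim values at 4.16, with mean signals of 3.59 and 4.0, and Clec4a was added for its position after its values had been seen. The dim Clec4b2 had signals of 3.79, 3.98 and 3.85 in sham rats, 4.23, 4.51 and 4.26 at 3 days and 3.89, 3.83 and 3.70 at 10 days. Its 3-day rats lay above the other groups, with 3-day rat 2 again the highest, at a level near the background where the scale is compressed.

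Clec7a lies in another stretch of chromosome 4, which runs Clec12a, Chtopl1, Clec12b, Clec1b, Clec9a, Clec1a and Clec7a. Its neighbours did not move with it as a block. Clec9a, a receptor of cross-presenting dendritic cells for dead cells, had signals of 6.13, 6.32 and 6.28 in sham rats and of 5.32, 5.69 and 5.72 at 3 days. It fell by 0.67 on the log2 scale at 3 days (adjusted p = 0.0157 with limma, and up to 0.0636 without 1 array), while its difference at 10 days was -0.24 (adjusted p = 0.333). Clec1b, the podoplanin receptor of platelets and Kupffer cells, had a signal of 5.29 in 3-day rat 2, below the 6.24 of rat 1 and the 6.09 of rat 3, and rat 2 was the lowest of the 3 for the platelet list too. Its differences were 0.53 ± 0.23 at 3 days and -0.35 ± 0.23 at 10 days (adjusted p = 0.307 and 0.506). Without 3-day rat 2 the difference of Clec1b at 3 days was 0.82 (adjusted p = 0.0479), and without 3-day rat 1 it was 0.35. Clec1a differed by 0.45 ± 0.15 at 3 days (0.25 without 3-day rat 2) and 0.02 ± 0.15 at 10 days, and Clec12b by 0.08 and 0.18, none of which passed.

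**Figure D4:**
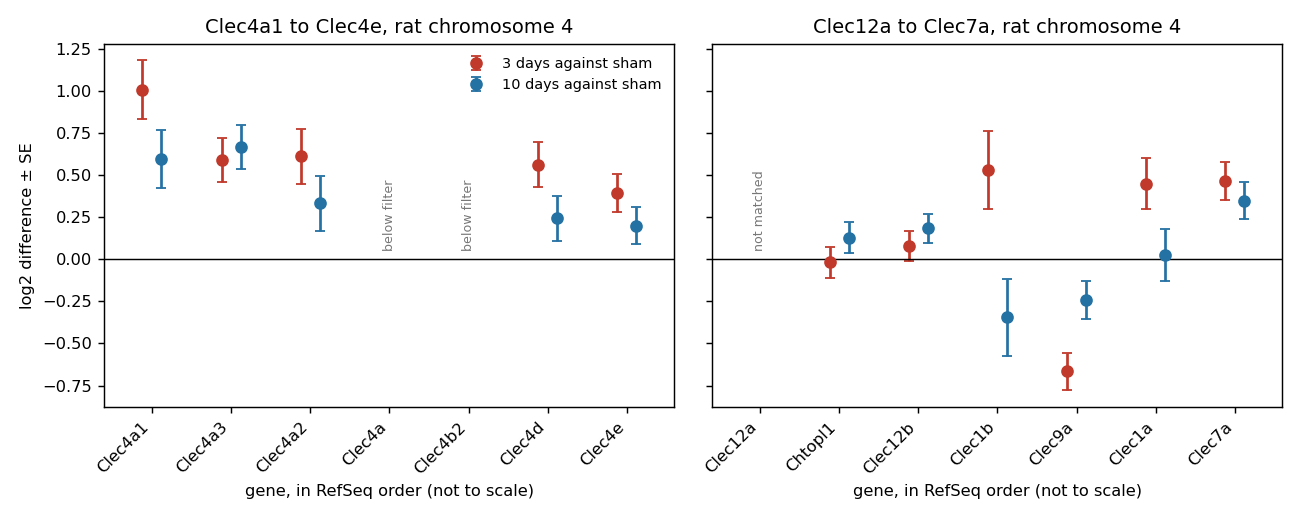
Log2 difference from sham ± SE (vertical axis) at 3 and 10 days for the genes of both chromosome 4 stretches, in RefSeq order and not to scale (horizontal axis). The tested genes of the first stretch are all above 0, and in the second Clec9a is at -0.67 and Clec7a at 0.46 at 3 days.

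The sequence before the start site is shown for the receptors that rose at 3 days and for the neighbours Clec4d and Clec4e. The signals of Clec4d and Clec4e varied together (r = 0.95 over 9 arrays). This does not set them apart, since Clec4a2, not printed, varied more closely with Clec4e (r = 0.97). The 4 windows printed are also those that hold the letters marked below. Each window holds 250 bases before and 50 bases after the RefSeq start, 5′ to 3′ on the gene's strand, in GRCr8. The windows lie at chr4:157845561-157845860 (plus strand) for Clec4a1, chr4:157886508-157886807 (plus) for Clec4a3, chr4:158275093-158275392 (plus) for Clec4d and chr4:158298418-158298717 (minus) for Clec4e, so that Clec4d and Clec4e are read towards each other. Capitals mark GAGGAA or its reverse complement TTCCTC, the core letters bound by PU.1, the transcription factor that defines myeloid cells.
Clec4a1: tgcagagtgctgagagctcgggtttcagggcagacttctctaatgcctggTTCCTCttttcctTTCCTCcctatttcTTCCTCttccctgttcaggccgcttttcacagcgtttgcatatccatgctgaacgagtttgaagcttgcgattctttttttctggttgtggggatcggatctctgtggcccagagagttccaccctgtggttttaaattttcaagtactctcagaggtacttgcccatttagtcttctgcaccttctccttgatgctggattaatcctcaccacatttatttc
Clec4a3: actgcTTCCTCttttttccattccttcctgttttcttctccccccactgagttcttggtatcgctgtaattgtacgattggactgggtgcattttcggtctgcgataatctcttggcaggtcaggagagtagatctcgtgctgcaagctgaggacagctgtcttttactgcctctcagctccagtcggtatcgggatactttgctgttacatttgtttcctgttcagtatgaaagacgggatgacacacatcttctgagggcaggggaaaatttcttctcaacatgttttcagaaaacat
Clec4d: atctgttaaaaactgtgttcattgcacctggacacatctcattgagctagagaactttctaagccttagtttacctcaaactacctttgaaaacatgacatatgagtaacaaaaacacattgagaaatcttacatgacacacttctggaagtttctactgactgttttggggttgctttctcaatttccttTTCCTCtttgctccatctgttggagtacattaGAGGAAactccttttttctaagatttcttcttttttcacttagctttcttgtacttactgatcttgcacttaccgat
Clec4e: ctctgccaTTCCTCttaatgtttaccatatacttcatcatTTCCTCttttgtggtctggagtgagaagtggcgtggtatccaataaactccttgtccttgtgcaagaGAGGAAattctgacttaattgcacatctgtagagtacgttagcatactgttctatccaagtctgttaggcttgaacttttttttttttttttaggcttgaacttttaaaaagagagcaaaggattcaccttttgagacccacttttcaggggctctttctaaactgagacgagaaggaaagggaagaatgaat

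A window was found for 6 of the 7 measured receptors, Clec10a being the exception. GAGGAA on either strand was in 4 of the 6, those printed, and in neither Clec4a2 nor Clec7a, while 27.6% of 33469 RefSeq windows of this length held it. With the start site as position 0 and the first base of a match as its position, Clec4a1 held it at -200, -187 and -173, Clec4a3 at -245, Clec4d at -59 and -27, and Clec4e at -242, -210 and -143. TTGCNNAA, the letters of C/EBP sites, was in the window of Clec4e at -153 on the minus strand and in none of the other 5, against 10.6% of all windows. TGANTCA (AP-1, 7.33% of all windows), CACGTG (the E-box of the TFE and MITF factors, 6.42%) and the NF-kB motif, GGG and CC with any 5 bases between them (47.3%), were in none of the 6. The matches of different motifs did not overlap in the printed windows. A match describes these letters and no binding was measured here.

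Of other C-type lectin-like receptors on a fixed list, 29 were tested. At 3 days 2 of the 29 rose and 1 fell, with a median difference of 0.05 and 18 of 29 higher. At 10 days none passed. At an unadjusted p under 0.05 with limma, 10 were higher and 1 lower at 3 days, against 9.10% of all genes higher. At 10 days 4 were higher and none lower at that level, against 7.99% of all genes higher. Clec5a, which pairs with the adaptor DAP12 (Tyrobp) on myeloid cells, had signals of 7.49, 8.28 and 8.29 in sham rats, 9.33, 9.20 and 8.78 at 3 days and 7.99, 8.01 and 8.22 at 10 days. The 3-day rats lay above both other groups, and sham rat 1 was again the lowest. Clec5a rose by 1.08 ± 0.21 at 3 days (adjusted p = 0.0304 with limma, and up to 0.102 without 1 array) and differed from sham by 0.05 ± 0.21 at 10 days. Thbd, thrombomodulin, an anticoagulant receptor with a lectin-like domain, rose by 1.20 ± 0.22 at 3 days (adjusted p = 0.0215, and up to 0.0653 without 1 array). Clec9a, given above, was the gene that fell. The macrophage mannose receptor Mrc1 differed by 0.73 ± 0.22 at 3 days and 0.19 ± 0.22 at 10 days, which did not pass (adjusted p = 0.131 and 0.732), the latter being 0.033 without sham rat 1. The Kupffer cell lectin Clec4f differed by 0.55 ± 0.23 at 3 days and 0.62 ± 0.23 at 10 days, which did not pass (adjusted p = 0.291 and 0.229 with limma). It had a signal of 5.82 in 3-day rat 3 against 5.02 and 4.74 in rats 1 and 2, and the difference at 3 days was 0.24 without rat 3. All 10-day rats lay above all sham rats.

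Among the adaptors and kinases below the receptors, 1 of 22 genes passed at 3 days, and the median difference was -0.0026. At an unadjusted p under 0.05 with limma, 4 were higher and 6 lower at 3 days, and likewise 4 and 6 at 10 days. Of all genes 9.10% were higher at that level at 3 days and 7.99% at 10 days. The share of all genes lower than sham is not given here, so the counts of lower genes stand without a background. The kinase gene Src differed by -0.51 and -0.35 (adjusted p = 0.0535 and 0.187), and Malt1, whose product works with CARD9, by -0.22 and -0.25 (adjusted p = 0.174 and 0.137). Syk had signals of 8.06, 8.22 and 8.24 in sham rats, 8.55, 8.49 and 8.56 at 3 days and 8.50, 8.43 and 8.47 at 10 days. Both PPVL groups lay wholly above sham. Syk rose by 0.36 ± 0.06 at 3 days (adjusted p = 0.0199 with limma, and up to 0.0575 without 1 array), and differed by 0.29 ± 0.06 at 10 days (adjusted p = 0.0705). Fcer1g, the adaptor of Clec4d and Clec4e, differed by 0.16 ± 0.06 at 3 days and 0.11 ± 0.06 at 10 days (adjusted p = 0.250 and 0.464). Card9 differed by 0.02 ± 0.06 at both days, with signals from 5.51 to 5.65 on all 9 arrays. Tyrobp differed by 0.06 ± 0.11 and -0.04 ± 0.11, and the phosphatase gene Ptpn6 by 0.30 ± 0.14 at both days, none of which passed. Without sham rat 1 the differences of Ptpn6 were 0.17 at 3 days and 0.18 at 10 days.

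Of 15 cytokine, chemokine and transcription factor genes known to be induced through CARD9 or NFAT, 1 rose at 3 days and 1 at 10 days, Egr2 both times. Egr2, a transcription factor gene induced through Dectin-1 and NFAT, had signals of 10.81, 10.83 and 10.95 in sham rats, 11.48, 11.75 and 11.35 at 3 days and 11.44, 11.59 and 11.38 at 10 days. It rose by 0.66 ± 0.10 at 3 days (adjusted p = 0.0115 with limma, below 0.05 in all 9 fits without 1 array) and by 0.61 ± 0.10 at 10 days (adjusted p = 0.0449, and up to 0.150 without 1 array). The other 14 genes did not pass on either day. At an unadjusted p under 0.05 with limma, 7 of 15 were higher at 3 days and none lower, against 9.10% of all genes higher. At 10 days 2 were higher, against 7.99% of all genes, and 3 were lower, for which no share of all genes is given here. Between the days 7 were lower at 10 than at 3 days and none higher, against 6.22% of all genes lower. The median difference of the 15 genes was 0.28 at 3 days, with 12 of 15 higher, and -0.02 at 10 days, with 4 of 15 higher.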

How the data were processed

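RNA of hepatic macrophages was measured on 1-colour, biotin-labelled Affymetrix arrays with 36685 probesets. The deposited values are log2 signals made by the authors with RMA and the Transcriptome Analysis Console, per the submitters' processing notes, with versions and genome build not given in the sources used here. RMA normalizes arrays to a common distribution, so a shift shared by most genes would not show. Array medians ran from 5.21 to 5.26. Precision is limited by having 3 arrays in a group.

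Probesets with 1 gene symbol in the platform annotation (18511) were kept, taking a gene's probeset of highest mean. Tested genes had a mean of at least 4.16, the 30th percentile of all probesets. All 9 arrays entered a moderated fit in limma 3.58.1 (R 4.3.3; 6 residual and 3.59 prior degrees of freedom) and checked on simulated data. With 3 rats against 3 an exact permutation test cannot go below p = 0.1, so limma's 2-sided test was used. Named were the 7 receptors whatever their values, the 5 adaptor and signalling genes Fcer1g, Tyrobp, Syk, Card9 and Ptpn6, every gene of the pathway lists past the test and the 2 closest genes of each receptor. Neighbours, marker genes, Mrc1, Clec4f, Src and Malt1 were chosen after values had been seen. Of the listed genes some were not matched and are not analysed here. The members and lists were chosen with earlier results of these data known. Alternatives were other filters, probeset means, quantile normalization, other moderation, array weights, a replicate block, fits of 2 groups and fits without single arrays.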

Additional observations from a re-analysis of the deposited data

How the results depend on the processing

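Over the 3 comparisons, the differences of the receptors kept their sign in all fits except that of Clec4a3 between the days (0.08), which was -0.048 without 3-day rat 1 (range -0.048 to 0.20 without single arrays). The number of receptors passing at 3 days, 2 of 7, was 1 with no filter, 3 with quantile normalization, 4 with the filter at the 50th percentile, with trend and robust moderation or with array weights, 1 with the replicate block and 0 with only the groups compared. It was 0 to 3 without single arrays, being 0 without sham rat 1, 1 without sham rat 2, 3-day rat 2 or 10-day rat 1 or 3, and 3 without 3-day rat 3. At 10 days, 0 of 7 became 1 (Clec4a3) with the 50th percentile filter, quantile normalization or trend and robust moderation, and was 0 to 1 without single arrays. Between the days it was 0 in all fits.

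The 401 genes passing at 3 days were 264 with the replicate block, 134 with only the groups compared, 190 to 327 without single arrays and 163 without sham rat 1 and 3-day rat 2 together, a setting chosen after seeing the data in which the receptors passing were 0. The 103 genes at 10 days were 173, 170, 173 and 197 with the 50th percentile filter, quantile normalization, trend and robust moderation and array weights, 61 with only the groups compared, 13 without both those arrays and 0 to 140 without single arrays (0 without sham rat 2, sham rat 3 or 10-day rat 3, 1 and 2 without 10-day rats 1 and 2, 11 without sham rat 1 and 45 without 3-day rat 2). They were 0 with no filter and 0 with the replicate block, where limma gave 2498 and 2163 at an unadjusted p under 0.05. The 10 genes between the days were 0 with the replicate block (1511 unadjusted), 3 with only the groups compared, 21 without both those arrays and 0 to 18 without single arrays (0 without sham rat 2, 3-day rat 1 or 10-day rat 3). The cause of these shifts was not tested. In the labels, same-numbered rats of different groups share only a number. Their deviations from group means correlated at -0.10 to 0.08, and those of differently numbered rats at -0.13 to 0.17. Whether a number stands for a shared step of handling is not given and was not tested. Signals near the filter, as for Clec4b2, are limited by background.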
